A study of Mus musculus with 2 samples.

Results

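Processed pseudogenes are copies of spliced messenger RNAs that were reverse transcribed and inserted into the genome, in mammals by the enzymes of LINE elements. They carry no introns of the parent gene and usually no promoter of their own, and abundant, housekeeping messages such as those for ribosomal proteins and glycolytic enzymes have left the most copies. Because a young copy differs from its parent messenger RNA at few bases, a sequencing read can match both.

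The processed pseudogenes of the mouse heart were taken as every gene that the annotation types as processed_pseudogene or transcribed_processed_pseudogene, the second type being copies with independent evidence of transcription. The annotation held 10237 of them among 55536 genes: 9941 of the first type and 296 of the second. Reads were listed for 474, made up of 424 of the first and 50 of the second type, out of 15031 annotated genes with a read. The heart was profiled by long-read RNA-seq, in which each read spans much or all of one RNA molecule, from female B6CASTF1/J mice 18 to 20 months old. These mice are first-generation hybrids of the C57BL/6J and CAST/EiJ strains, so each carries 1 genome that is not the reference strain's. There were 2 libraries of 1 group, made from 2 µg of total RNA each and labelled as biological replicates 1 and 2. They are separate biosamples under the same donor entry, and the labels do not say whether they are separate animals. No treatment, genotype or time was compared, so all tests between libraries measure differences between these libraries only.

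Replicate 1 held 630211 mouse reads and replicate 2 held 664319. One read was therefore worth 1.61 and 1.48 CPM (counts per 1000000 reads, with library sizes scaled by the TMM method) in the 2 libraries, and a count of 0 allows a level of up to 4.83 CPM in replicate 1 and 4.45 CPM in replicate 2 (3 reads, counting error only). All 9 heart muscle markers had reads in both libraries, with summed levels of 40664 CPM in replicate 1 and 38447 CPM in replicate 2. The libraries differed in other cells' markers: the 5 erythroid genes summed to 30391 CPM in replicate 1 and 11784 CPM in replicate 2, the 5 airway genes to 0 and 597 CPM (Sftpc and Foxj1 had no read in either), and the 5 fat cell genes to 611 and 1437 CPM (Lep had none). The endothelial markers summed to 846 CPM in replicate 1 and 1162 CPM in replicate 2, the fibroblast markers to 338 and 476 and the macrophage markers to 208 and 322. Fabp4 was in both the fat cell and the endothelial list. The part of these cells in the values given here was not tested.

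The sequences come first, because many of the most read copies differ from their parents at few bases or at none. Differences were counted over the annotated copy only. Bases past its annotated ends and mismatches within the reads were not examined. The first pair shows the most read copies whole, with start and stop codons in capitals, from the annotated transcripts of GENCODE M21 on mm10. Gm12338, at chr11:75599763-75599954 on the minus strand, is 192 bases long and has 0 mismatches to the coding sequence of Cox7c, a small subunit of cytochrome c oxidase. Gm14539, at chrX:20581141-20581314 on the minus strand, holds the first 174 of the 177 coding bases of Usmg5, a subunit of mitochondrial ATP synthase, and ends just before the stop codon.
Gm12338: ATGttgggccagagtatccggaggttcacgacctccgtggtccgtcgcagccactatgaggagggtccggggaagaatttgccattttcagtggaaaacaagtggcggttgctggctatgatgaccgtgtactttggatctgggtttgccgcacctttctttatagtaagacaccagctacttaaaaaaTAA
Gm14539: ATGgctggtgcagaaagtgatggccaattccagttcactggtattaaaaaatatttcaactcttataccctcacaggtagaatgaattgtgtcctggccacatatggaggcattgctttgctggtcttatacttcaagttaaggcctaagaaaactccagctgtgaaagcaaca

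The next sequences show how little separates copies of Gapdh, the glycolytic glyceraldehyde phosphate dehydrogenase, and of Rpl35a, a large ribosomal subunit protein, from their parents. Each is a stretch of 41 bases around the first base at which copy and parent differ, in capitals, with the parent's own coding bases on the line after it. Positions count from 1 at the first coding base of the parent and give the parent's base first. Gm12033 (chr11:20335490-20335530, minus strand) has T504C as its sole change in 1002 bases, and Gm5559 (chr5:95862078-95862118, plus strand) has T385A. Gapdh-ps15 (chrY:38619825-38619865, plus strand) has 5 changes, T63C, T150C, C219G, C222T and C591T. Gm10243 (chr6:48523653-48523693, plus strand) has G156A, a change it shares with 4 other copies of Rpl35a whose whole annotated sequences are identical to it.
Gm12033: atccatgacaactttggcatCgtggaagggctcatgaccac
Gapdh, same bases: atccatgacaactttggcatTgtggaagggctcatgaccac
Gm5559: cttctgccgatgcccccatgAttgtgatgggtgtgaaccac
Gapdh, same bases: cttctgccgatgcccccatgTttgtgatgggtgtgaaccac
Gapdh-ps15: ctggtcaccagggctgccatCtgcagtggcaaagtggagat
Gapdh, same bases: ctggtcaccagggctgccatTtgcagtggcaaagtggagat
Gm10243: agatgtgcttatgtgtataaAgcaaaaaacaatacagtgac
Rpl35a, same bases: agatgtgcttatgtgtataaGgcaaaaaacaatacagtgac

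Processed pseudogenes took 11226 reads in replicate 1 and 11571 in replicate 2, or 1.78% (1.75 to 1.81, exact 95% binomial interval) and 1.74% (1.71 to 1.77) of mouse reads (mean 1.76% ± 0.0279, SD, n = 2). Intervals cover counting error only. Reads were listed for 365 copies in replicate 1 and 372 in replicate 2, and for 263 in both. The 211 copies seen in 1 library had at most 6 reads, and the 263 shared ones held 98.8% of the reads. Of the 474, 163 had 1 read in all, 149 had at least 10 and 45 had at least 100, and these 45 held 80.7% of the reads. The 5 most read copies held 32.9% of the reads of all processed pseudogenes in replicate 1 and 33.7% in replicate 2, and 16 copies were among the 500 most read annotated genes. By type, 4.27% of annotated processed and 16.9% of transcribed processed pseudogenes had a read, beside 1.36% of unprocessed pseudogenes, 9.02% of lincRNA genes and 58.3% of protein-coding genes.

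Copies of mitochondrial energy genes led the list. Gm12338, the copy of Cox7c, had 1120 reads in replicate 1 and 948 in replicate 2, and Gm14539, the copy of Usmg5, had 903 and 992. Both exceeded every other copy in both libraries. Atp5g2, which encodes the membrane ring subunit of ATP synthase, had a pair of read copies that match it without a mismatch: Gm10175 had 311 reads in replicate 1 and 338 in replicate 2, and Gm10231 had 208 and 413. The counts of Gm10175 were close, while the larger count of Gm10231 was in replicate 2. Further copies of this kind were Gm10221, of the ATP synthase subunit gene Atp5l, with 185 and 207 reads, and BC002163, of the complex I subunit gene Ndufs5, with 192 and 180. Assigned by sequence match, 25 copies of respiratory chain and ATP synthase genes held 2224 reads in replicate 1 and 2298 in replicate 2, or 19.8% and 19.9% of the reads of all processed pseudogenes. That family was defined by the start of the parent's symbol and leaves out Usmg5, so the reads of Gm14539 are not in it.

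Copies of cytosolic ribosomal protein genes were the most numerous. By sequence match there were 193 of them with reads, of 2513 annotated, and they held 4230 reads in replicate 1 and 4459 in replicate 2 (37.7% and 38.5%). Gm14303, the copy of Rps29, had 549 and 569 reads. Gm15500, a transcribed processed pseudogene that matches Rpl5, had 484 and 606. Rps19-ps6 had 254 and 247, Rpl37rt 229 and 235, Gm10243 209 and 218, Gm8172, a copy of Rps6, 164 and 181, and Gm13370, a copy of Rpl21, 158 and 156. Rps2-ps13 had 142 reads in replicate 1 and 147 in replicate 2, and Rps13-ps1 had 149 and 118. Gm9843 is a copy of Fau, whose product is a ubiquitin-like protein fused to a small subunit protein. It had 119 and 133 reads, which are not in the family's sum because the parent's symbol does not begin with Rpl or Rps.

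**Figure D1:**
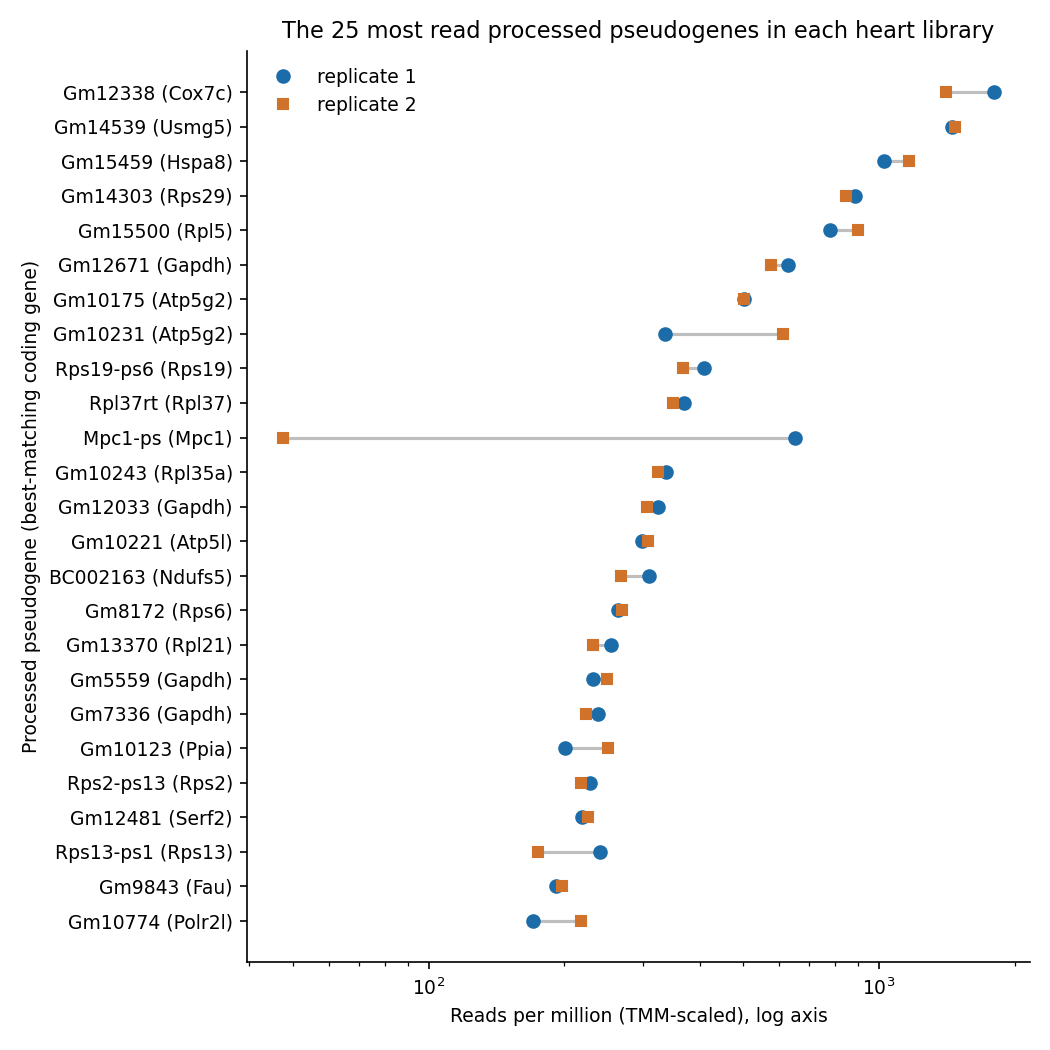
The 25 processed pseudogenes with the highest mean level are drawn as TMM-scaled CPM on a log axis, with replicate 1 as circles, replicate 2 as squares and the best-matching coding gene in brackets. Most pairs of points nearly touch, while Mpc1-ps (404 reads in replicate 1 and 32 in replicate 2) and Gm10231 (208 and 413) lie far apart.

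Chaperone, glycolysis and other copies followed. Gm15459 holds the whole coding sequence of Hspa8, the constitutive heat shock cognate chaperone, with 5 mismatches in 1941 bases, and had 638 reads in replicate 1 and 784 in replicate 2. Gm10123, a copy of the cyclophilin gene Ppia, had 125 and 169 reads. Glycolysis was represented by 23 copies with 998 and 1037 reads, of which 19 are copies of Gapdh. Smaller parents included Serf2, whose copy Gm12481 had 136 and 152 reads, and Polr2l, a small RNA polymerase subunit gene whose copy Gm10774 had 106 and 147. The remaining lists by match were small: 14 copies of nuclear RNA and chromatin binding genes had 22 and 36 reads, 8 of translation factor genes 42 and 33, 6 of cytoskeleton genes 28 and 19, and 1 of an iron storage gene 2 and 2.

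The symbol alone gives the parent of few of them. A parent could be read from the name of 112 of the 474 copies, which held 19.9% of the reads, while 332 bear only a Gm number. The sequence match gave the same parent for 101 of the 112 and another symbol for 11, among them Hsp25-ps1, which matched Hspb1, the gene of that small heat shock protein under its current symbol. By name, 71 ribosomal protein copies held 1592 reads in replicate 1 and 1558 in replicate 2, and 35 copies of parents outside the fixed families held 729 and 451, with Mpc1-ps (404 and 32), Mrpl23-ps1 (58 and 62) and Gpx4-ps2 (54 and 52) leading. The other families named 1 or 2 copies each: Hsp25-ps1 had 48 and 57 reads and Tpt1-ps3 had 8 and 3, Eif4a-ps4 had 28 and 24, Gapdh-ps15 had 10 and 10, Atp5l2-ps had 4 and 8, and Hmgn2-ps1 had 1 and 0. None of the annotated copies that are named for cytoskeleton (4) or iron storage (1) genes had a read.

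The copies with reads were mostly close to their parents in sequence. Against the best-matching protein-coding transcript, the median identity was 99.1% for the 474 copies and 99.7% for the 149 with at least 10 reads, beside 88.0% for the 9763 without a read. Among copies matched over at least 90% of their length, 0.389% of those up to 80% identical (6 of 1542) had a read, 1.31% of those between 90 and 95% (25 of 1904), 17.5% of those between 98 and 99% (74 of 422) and 50.9% of those above 99.5% (166 of 326). The last set held 79.9% of all the reads of processed pseudogenes. The same order held for copies of genes with many and with few listed reads. Above 99% identity, 64.7% of copies of parents with at least 100 reads and 28.7% of copies of parents with fewer had a read. At lower identity the shares were 3.91% and 1.26%. Parents were split by their own listed reads, so those with fewer than 100 include Gapdh (25 reads, beside 1984 on its copies). The split therefore cannot separate genes of high and of low level. These shares describe what was listed, since a read of the parent that aligned best to a near-identical copy is counted for the copy, and the 2 sources cannot be told apart in these counts.

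**Figure D2:**
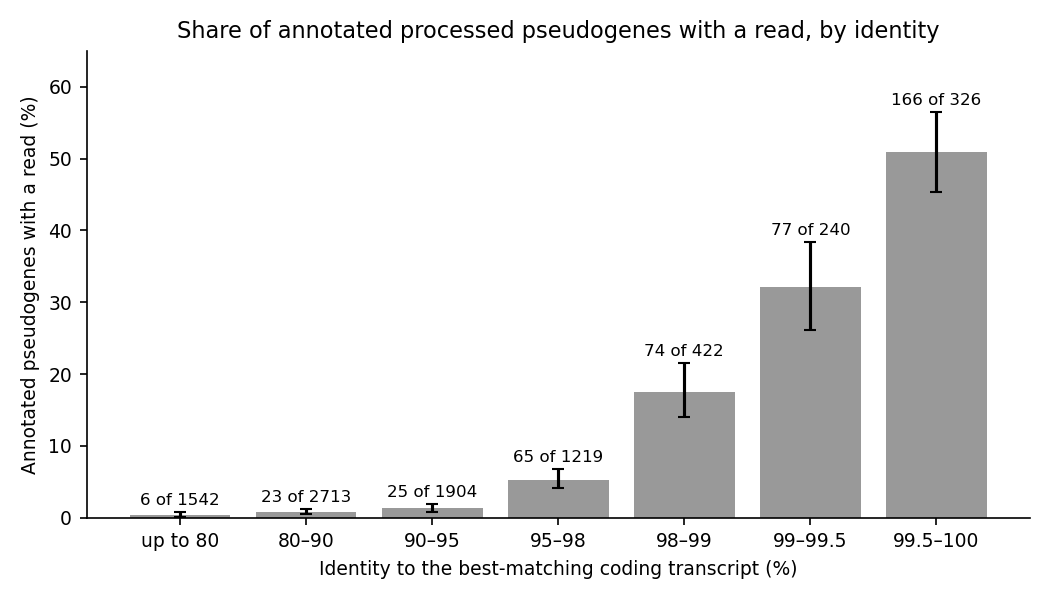
Bars give the percentage of annotated processed pseudogenes with at least 1 read in either library, by identity to the best-matching coding transcript, for copies matched over at least 90% of their length, with exact 95% binomial intervals and the counts above each bar. The share is under 2% up to 95% identity and 50.9% above 99.5%.

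The reading frames were set beside those of the parents. An open frame from a start to a stop codon, of at least 95% of the parent's coding length, was found in 40.6% of the copies with reads and 66.4% of those with at least 10, beside 5.16% of those without a read. Where the frame was also allowed to run to the annotated end of the copy without a stop codon, a definition added after the values were seen, these shares were 55.2%, 84.6% and 8.18%. The sequence match began at the parent's start codon in 64.3% of the 473 matched copies with reads and 31.7% of those without. It ended at the parent's stop codon in 49.7% and 23.5%. The match was not required to reach the ends of the copy. These sets also differ in median identity to the parent: 99.1% with reads, 99.7% with at least 10 and 88.0% without. Frames and match ends were not compared among copies of equal identity. Whether they differ between copies with and without reads beyond this difference in identity was not tested. Of the 25 most read copies, 19 match only coding bases of the matched parent transcript. Gm15500, Gm10175, Rpl37rt, Gm7336, Gm12481 and Rps13-ps1 also match bases outside its coding sequence or hold further sequence. For Gm12481 an open frame spans all 297 annotated bases, beside 180 coding bases in the matched Serf2 transcript. Other Serf2 transcripts were not compared. Gm14539, Gm10221, BC002163 and Gm10123 are annotated without the parent's stop codon. Their frames run open to the annotated end over 98.3%, 99%, 99.4% and 99% of the parent's coding length.

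For some families nearly all listed reads were on copies. Gapdh itself had 13 reads in replicate 1 and 12 in replicate 2, while its 19 read copies had 970 and 1014, or 98.7% and 98.8% of the reads of parent and copies together. Gm12671, at chr4:91851668-91852669, matches the Gapdh coding sequence without a mismatch and had 390 reads in replicate 1 and 388 in replicate 2. Gm12033 followed with 201 and 206, Gm5559 with 144 and 168, Gm7336 with 148 and 151 and Gm13394 with 45 and 57. The other 14 had at most 20 reads each over both libraries. Gm10359 on chromosome 5 has the same annotated sequence as Gm12671 and had 5 reads in replicate 1 and 1 in replicate 2, so identical annotated copies did not share reads evenly.

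Rpl35a and Rpl21 showed the same distribution. The 10 read copies of Rpl35a held 324 reads in replicate 1 and 322 in replicate 2, beside 36 and 25 on Rpl35a. The 5 identical ones among them ranged widely: Gm10243 had 209 and 218, Rpl35a-ps2 had 56 and 59, Rpl35a-ps3 had 20 and 16, Rpl35a-ps6 had 16 and 12 and Rpl35a-ps4 had 3 and 7. Their order was the same in both libraries. The 5 read copies of Rpl21 had 282 and 276 reads, beside 20 and 13 on Rpl21, and the 6 of Rpl17 had 61 and 62, beside 7 and 5.

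These families were a minority. Among the 270 matched parents with at least 10 reads over parent and copies, 20 had more reads on their copies, 13 of them among the 69 ribosomal protein genes in that set, and the median share on copies was 5.43%. Cox7c had 2095 and 2105 reads, beside 1125 and 952 on its copies. Usmg5 had 2056 and 2090, beside 904 and 993 on its copies. Hspa8 (700 and 821 reads), Rps29 (585 and 691) and Rps19 (238 and 251) stood close to their copies, which had 640 and 786, 549 and 569, and 260 and 252. Hadhb, which encodes an enzyme subunit of mitochondrial fatty acid oxidation, had 1581 and 1998 reads, beside 106 and 115 on its copy Gm13910. The levels of parents and of copies are both uncertain where the sequences are this alike.

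**Figure D3:**
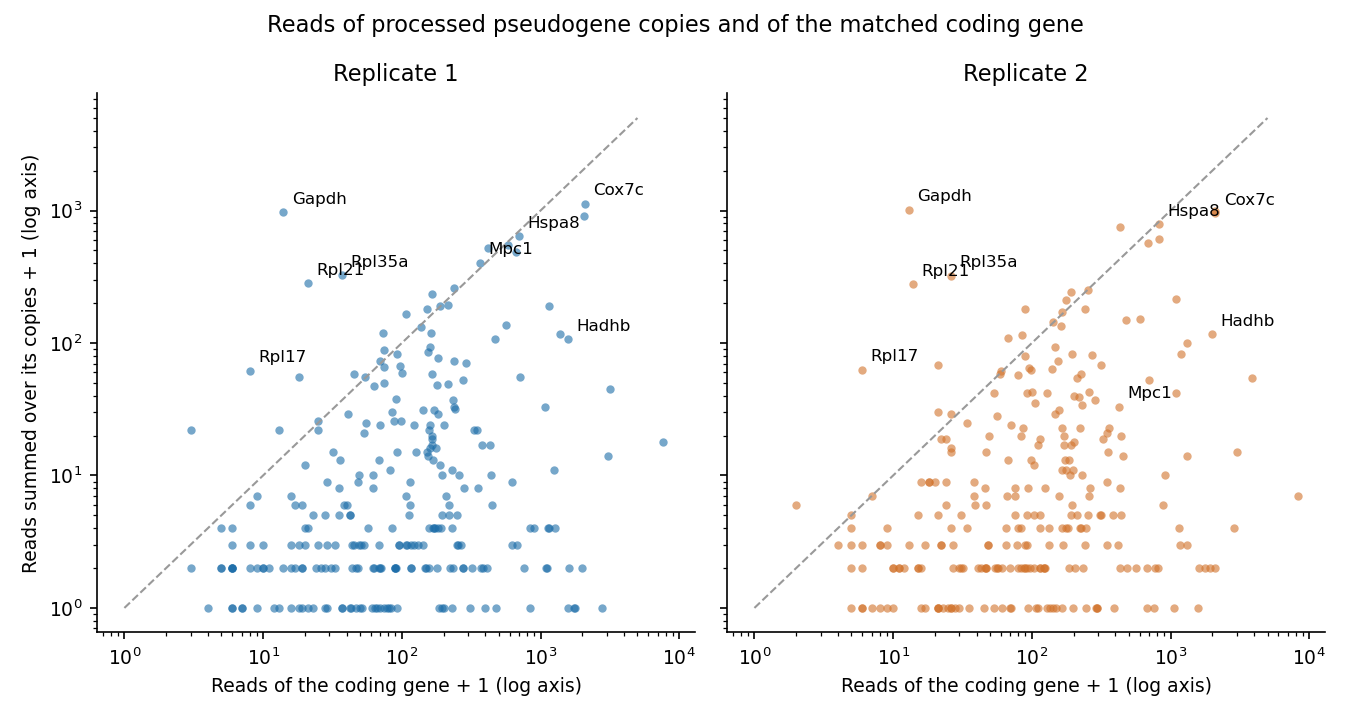
Each point is 1 of the 270 coding genes with at least 10 reads over gene and copies, with the gene's own reads plus 1 on the horizontal and the reads summed over its processed pseudogenes plus 1 on the vertical axis, both logarithmic, in replicate 1 (left) and replicate 2 (right). Gapdh, Rpl35a, Rpl21 and Rpl17 lie far above the dashed line of equal reads in both panels, and Mpc1 has 404 copy reads in the left panel and 32 in the right.

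Reads of processed pseudogenes fell almost wholly on annotated models. The Known class, reads matching an annotated transcript, held 99.4% of them in replicate 1 and 99.3% in replicate 2 (mean 99.4% ± 0.0357, SD, n = 2), beside 69.4% and 68.0% for the other annotated genes. Other annotated genes with single-exon transcripts only, as most processed pseudogenes have, stood at 99.2% and 98.9%. The genomic class, which marks reads judged likely to come from genomic DNA or unspliced RNA, held 0.463% and 0.458%, and incomplete matches (ISM) 0.0356% and 0.0778%. All 338 Known models in replicate 1 and all 340 in replicate 2 are listed at the annotated length, so the length column does not show how much of a copy the reads span. Models of 2 or more exons took 83 reads in replicate 1 (0.739%) and 91 in replicate 2 (0.786%), beside 94.5% and 94.0% of the reads of the matched parents. The sole copies with at least 10 such reads were 2810025M15Rik with 19 and 29 and A930017M01Rik with 6 and 6, both annotated as transcribed processed pseudogenes and both overlapping an exon of a coding gene on the opposite strand, Rasal2 and Sybu.

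The 50 read transcribed processed pseudogenes held 1382 reads in replicate 1 (12.3%) and 1549 in replicate 2 (13.4%). Gm15500 (484 and 606), Gm10175 (311 and 338) and Rpl37rt (229 and 235) held most of these, followed by Gm7666, a copy of the prohibitin gene Phb, with 52 and 67, and Gpx4-ps2, a copy of the lipid peroxide-reducing glutathione peroxidase gene Gpx4, with 54 and 52. None of these 5 lies in an intron of a coding gene.

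Of the 474 copies, 130 (27.4%) lie wholly inside an intron of a protein-coding gene without touching its exons, beside 20.3% of the 10237 annotated ones. Of these, 85 are on the strand opposite to the host, 44 on the same strand and 1 has hosts on both, and the opposite share was 65.4%, beside 62.0% of all annotated intronic copies. A further 35 (7.38%) overlap an exon of a coding gene, beside 1.76% of all annotated. Intronic copies held 26.0% of the reads.

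The most read of the intronic copies had more reads than their hosts. Gm12338 lies in Pitpna, a phosphatidylinositol transfer protein gene, on the opposite strand, and had 1120 and 948 reads, beside 52 and 65 for the host. Rps19-ps6 is on the strand of Tecpr2 and had 254 and 247 reads, beside 1 and 2 for the host. Mpc1-ps, opposite to Zfp839, had 404 and 32, beside 5 and 3. BC002163, on the strand of the transcription factor gene Zbtb20, had 192 and 180, beside 17 and 26. Gm13370, on the strand of Pnpla7, had 158 and 156, beside 58 and 77. Gm8172, opposite to Aff2, had 164 and 181, Rpl21-ps15, opposite to the kinase gene Wnk3, 92 and 94, and Rpl28-ps1, opposite to the helicase gene Zranb3, 76 and 69, and none of these 3 hosts had a read. Gm7536, opposite to Naaladl2, had 92 and 93 reads, beside 1 and 0, and Gm12191, on the strand of the deadenylase gene Cnot6, had 52 and 64, beside 2 and 6. The copy had the larger count in all 20 pairs with the most copy reads, an order that itself favours the copy. Over all 130 intronic copies, 54 had more reads than their host over both libraries, 7 had as many and 69 had fewer, and 27 hosts had no read.

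**Figure D4:**
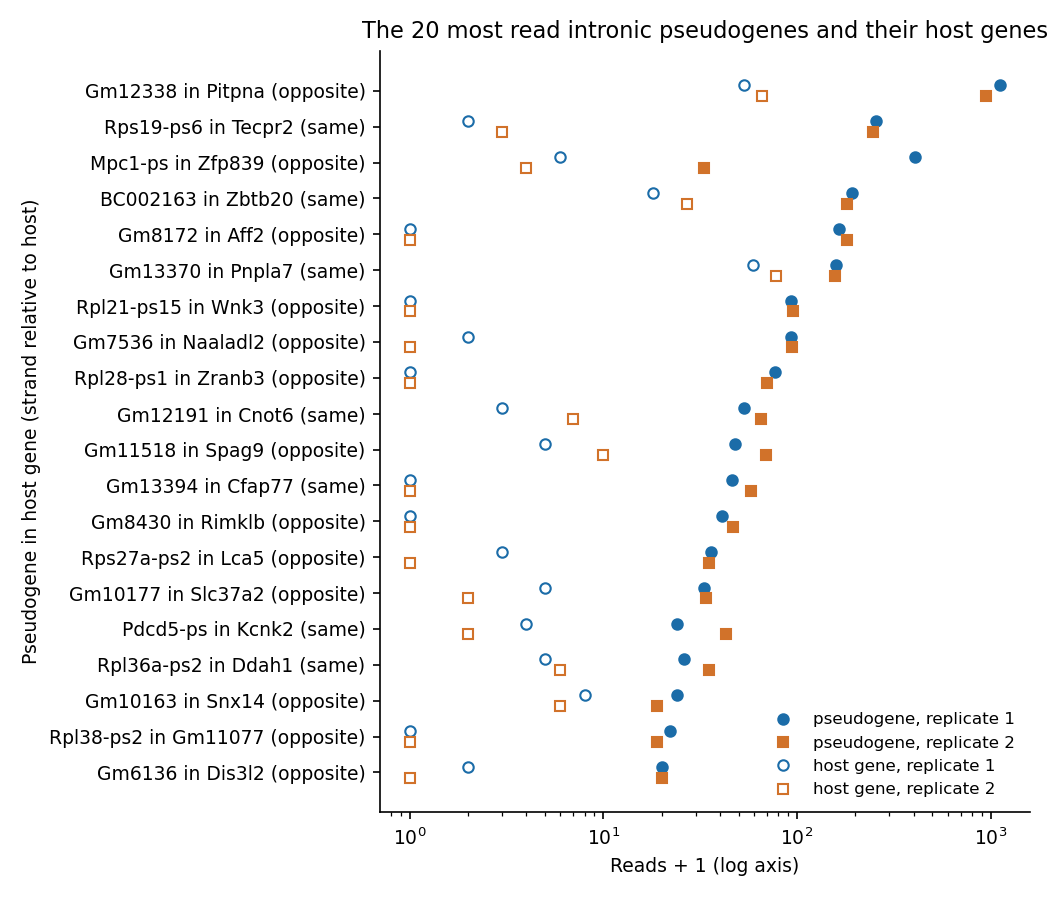
Reads plus 1 on a log axis for the 20 most read processed pseudogenes inside an intron of a coding gene (filled) and for their host genes (open), with replicate 1 as circles and replicate 2 as squares. Every filled point lies right of the open points of its row, and 6 hosts stand at 0 reads in both libraries.

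Copies with reads were spread over 21 chromosomes, 26 of them on X and 1 on Y. Gapdh-ps15, the copy on Y, had 10 reads in replicate 1 and 10 in replicate 2. In replicate 1 a new transcript model of 183 bases, outside the annotated genes, began on its last base and had 1 read. The mice are labelled female, however, and no other annotated gene on Y had a read in either library. Ddx3y, Kdm5d, Uty and Eif2s3y, genes that male tissues express broadly, were all at 0 in both. As shown above, Gapdh-ps15 differs from the Gapdh coding sequence at 5 bases. Which transcripts gave its reads was not tested.

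Between the libraries most copies were alike. Of the 149 copies with at least 10 reads, 108 (72.5%) were within 1.5-fold in replicate 1 over replicate 2, beside 71.3% of all 7545 annotated genes tested, and the median log2 ratio was 0.07, beside 0.00. With the scaled library sizes as the expected split, an exact binomial test (two-sided, Benjamini-Hochberg adjusted over all 7545 genes) called 6 copies (4.03%), 4 higher in replicate 1 and 2 higher in replicate 2. The same rule called 2.07% of all annotated genes.

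All 6 have a feature in common: in the library with fewer reads, and not in the other, a new transcript model on the same strand begins on the last annotated base of the copy. Those models belong to other gene entries, so their reads are not counted for the pseudogene. The last 30 bases of the 6 copies are shown with the stop codon in capitals, or for Gm15432, which is annotated without one, the last base alone. The final base of each line is the first base of the new model.
Gm12338: atagtaagacaccagctacttaaaaaaTAA
Gm10231: gtggcctttctcatcctcttcgccatgTGA
Mpc1-ps: tacgagatgagtaagcggccatctgcaTAG
Gm6055: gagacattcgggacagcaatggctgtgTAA
Oaz1-ps: gagagagaggacccgggtgaggaggacTAG
Gm15432: gccttgttcgtcttcgtgtacctcttgccC

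Mpc1-ps (chr12:110858565-110858894), a copy of the mitochondrial pyruvate carrier gene Mpc1, had 404 reads in replicate 1 and 32 in replicate 2, a ratio of 13.7 (9.54 to 20.3, exact 95% interval; adjusted p = 7.53e-87 by the exact binomial test). In replicate 2 a new model of 496 bases beginning on its last base had 385 reads, and copy and model together had 404 and 417. Gm15432 (chrX:29564014-29564208), a copy of 1810037I17Rik, had 72 and 2 reads, a ratio of 39.0 (10.4 to 328; adjusted p = 3.14e-18, exact binomial test), and 72 and 69 with the 67 reads of its new model in replicate 2. Gm6055 (chr14:48079375-48079752), a copy of the autophagosome protein gene Map1lc3b, had 70 and 21 reads, a ratio of 3.61 (2.19 to 6.20; adjusted p = 2.87e-06, exact binomial test), and 70 and 66 with the new model. In these 3 the sums lay close together where the copy's own reads did not.

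Gm12338 had 1120 and 948 reads, a ratio of 1.28 (1.17 to 1.40; adjusted p = 2.65e-06, exact binomial test), and 1120 and 1125 with a new model of 177 reads in replicate 2. In the other direction, Gm10231 (chr17:5816200-5816640) had 208 reads in replicate 1 and 413 in replicate 2, a ratio of 0.546 (0.460 to 0.647; adjusted p = 7.43e-11, exact binomial test), and 388 and 413 with a new model of 180 reads in replicate 1. Oaz1-ps (chr17:17345456-17346140), a copy of the ornithine decarboxylase antizyme gene Oaz1, whose messenger RNA is known for its programmed frameshift, had 3 and 82 reads, a ratio of 0.0397 (0.00801 to 0.120; adjusted p = 3.04e-17, exact binomial test). With a new genomic-class model of 73 reads in replicate 1 it had 76 and 82. When the reads of every such new model were added to the annotated gene it abuts, none of the 6 was called. This alternative was chosen after the data were seen. Of the 150 other called genes, 147 still were called. Such models abutted 496 annotated genes, 153 of them processed pseudogenes, which took 2509 of the 3979 reads added. How many of the 150 had such a model was not counted, so their calls are no control for the addition. With these reads added, 1 of 163 processed pseudogenes was called, Gm6969, beside 1.97% of all annotated genes.

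**Figure D5:**
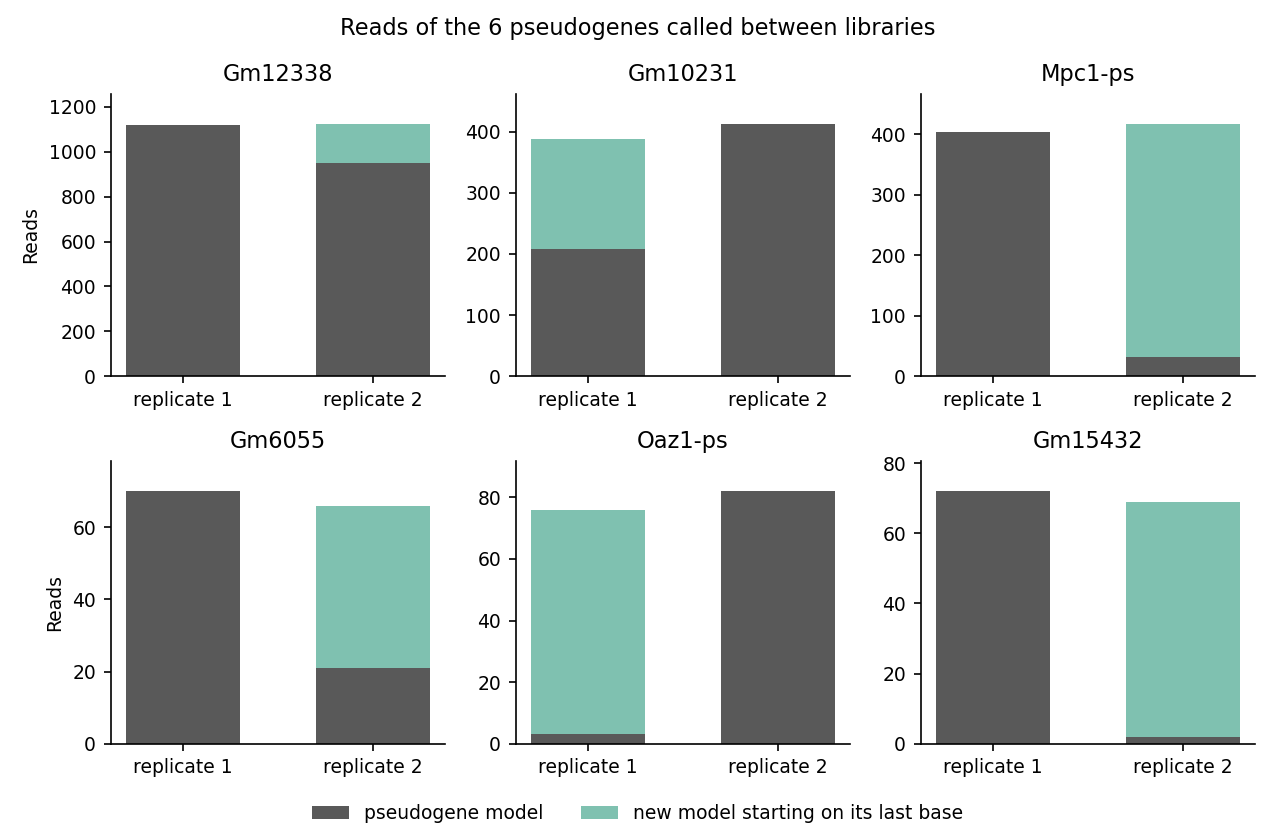
Reads of the 6 processed pseudogenes called between libraries, replicate 1 left and replicate 2 right in each panel, as stacked bars from 0: the pseudogene's own models (dark) and new models that begin on its last annotated base (light). In each panel the light part stands in 1 library only and brings the bars to nearly equal height, as in Mpc1-ps with 404 and 417.

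New models of this kind were found at 74 of the 474 copies, in both libraries for 26, in replicate 1 only for 23 and in replicate 2 only for 25. They held 933 reads in replicate 1 and 1291 in replicate 2, as many as 8.31% and 11.2% of the reads of processed pseudogenes themselves. In a window of 20 bases on either side, 2224 reads lay on new models that begin exactly on the last annotated base, and 3 on all others. Such models with at least 10 reads numbered 23, counted in each library separately, so some copies enter once for each library. Their lengths were set beside the 3′ untranslated region of the matched parent transcript, the longest where transcripts of the parent scored equally. Other annotated lengths of the same parent were not compared. Of these 23, 12 were within 20 bases of that length. Examples are 114 bases beside 119 for Cox7c at Gm12338, 144 beside 150 for Atp5g2 at Gm10231, 496 beside 499 for Mpc1 at Mpc1-ps and 280 beside 286 for Oaz1 at Oaz1-ps. Others differed, with 239 beside 1990 bases for Map1lc3b at Gm6055. Summed over both libraries, Gm10774 had the most reads of this kind, 321 in replicate 1 and 342 in replicate 2, on a genomic-class model of 259 bases in both libraries, beside its own 106 and 147. The copy overlaps an exon of Usp50, a ubiquitin peptidase family gene, on the same strand.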

How the data were processed

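Long reads of 2 libraries of 1 group were analysed. Per the notes deposited with each library, mm10 and GENCODE M21 were the build and annotation. The deposited models carry TALON fields, per the file headers. Aligner, filters and versions: not given in the sources used here. The deposited values are raw counts of reads per transcript model, made separately for each library, without molecular identifiers. CAST alleles were not separated. The part and its lists were chosen with earlier results of these data known.

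Reads of all models of a gene were summed, leaving out spike-ins. TMM factors (edgeR 4.0.16, genes with at least 10 reads) scaled the mouse reads to CPM. With 1 group there is no test of a condition. Every annotated gene with 10 or more reads in all was compared between the libraries by an exact binomial test (two-sided, scipy 1.17.1) with the scaled library sizes as the expected split. P-values were Benjamini-Hochberg adjusted over all genes tested and called at 0.05. The procedure was tested on simulated data. Those counts held counting error only, as the test assumes, so they cannot show how it handles further spread between libraries. Log2 ratios add 0.5 to each count. These p-values cover counting error only, not the spread between animals.

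Annotation coordinates are those of GENCODE M21, since new models widen the deposited gene spans. Parents by name are the symbol before -ps. Parents by match, added after the files were seen, are the best BLAST 2.17.0 match on the same strand to a protein-coding transcript (e-value 1e-05), and among matches within 1% of the top score the gene with the most reads. Of that gene's equally scoring transcripts the longest was taken, and coding and untranslated lengths of the parent are those of this transcript. The choice of gene was open for 42 copies, and 1 had no match. No minimum identity or matched length was set for parents and families, so weak partial matches are counted. For example, 2810025M15Rik was given to Rpl37a at 78.15% identity over 21.78% of its length. Genes named are the 25 with the highest mean CPM, called ones, the leading ones per family, type, host and spliced set; the further copies and parents of Gapdh, Rpl35a, Rpl21 and Rpl17, Hadhb with Gm13910, Gapdh-ps15 and the genes on Y beside it were chosen after their values were seen. Alternatives were other scalings, DESeq2 1.42.0 size factors, filters, model classes and single libraries.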

Additional observations from a re-analysis of the deposited data

How the results depend on the processing

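The 6 calls between libraries stayed 6 under total mouse reads, DESeq2 size factors, no filter, at least 50 reads, Known models only and with the genomic class left out. Adding the reads of new models that abut any annotated gene left 1 call, Gm6969, a copy of Cox7a2l, at a log2 ratio of 2.63 beside -0.23 as listed: its abutting model had 91 reads in replicate 1, while in replicate 2 new models with 96 reads began further downstream. The same addition turned the log2 ratios of Gm10231 from -0.87 to 0.03 and of Oaz1-ps from -4.44 to 0.01, neither called. Both had abutting models only in the library with fewer reads, so the direction of the shift was fixed by construction, though its size was not. Adding instead new models starting within 1 kb downstream of a processed pseudogene also gave 0.03 and 0.01 and left 1 call, Rpl21-ps9, which has no reads of its own and 266 and 0 reads nearby. Copies with reads in both libraries numbered 263, or 129 with at least 5 reads in each. The share of mouse reads on all copies with reads was 1.76%, or 2.66% with Known models only, 1.92% with the genomic class left out and 1.73% over all listed reads. The Known share of all copies' reads was 99.35%, or 99.31% without the most read copy. As a mean over copies with at least 5 reads in each library it was 99.10%. Intronic copies numbered 130, or 39 with at least 10 reads. The median length of the most read model was 100% of the annotated length (208 copies), as listed lengths require, and 86.46% over 23 copies with Known models left out. Without 1 library the values were 365 to 372 copies with reads in the library left, 1.74 to 1.78%, 99.33 to 99.38%, 96 to 101 intronic copies and 100%. The test needs both libraries. No paired analysis was possible because there is 1 group. Depth limits the 163 copies with 1 read.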

Other observations

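The strands were unequal. Copies annotated on the minus strand held 71.9% of the reads of processed pseudogenes in replicate 1 and 71.3% in replicate 2, beside 52.4% and 52.2% for minus-strand genes among all other annotated genes. The numbers of copies were closer: 255 of 5102 minus-strand and 219 of 5135 plus-strand copies had a read, and 85 and 64 had at least 10. The 5 most read copies, Gm12338, Gm14539, Gm15459, Gm14303 and Gm15500, are all on the minus strand. New models beginning on the last annotated base held 2122 reads at minus-strand copies and 102 at plus-strand ones, and 17 of the 19 copies with at least 10 such reads are on the minus strand. This pattern was seen after the values were known, and its source was not tested.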
